A study of Mus musculus with 4 samples.

Results

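The Notch pathway genes described here are 10 mouse genes taken by name: the receptors Notch1, Notch2, Notch3 and Notch4, the ligands Jag1, Jag2, Dll1 and Dll4, and the target genes Hey1 and Heyl. Their promoter, 5′ UTR, exon, intron and 3′ UTR entries were found by Ensembl identifier. CpG islands and their shores (the flanks of about 2 kb beside an island) were added where they overlap a member gene. All 10 genes were found, of 28883 genes with an entry. They hold 43 gene region entries with a level in every library, of 76155 in all, namely 10 promoters, 9 5′ UTRs, 10 exon entries, 10 intron entries and 4 3′ UTRs. They also overlap 18 CpG islands and 18 shores, of which 35 have a level in every library, of 30534 islands and shores in all.

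Bisulfite sequencing was done in C3H10T1/2, an established mouse mesenchymal cell line that can form osteoblasts (OBs) in culture. The uninduced NC cells had received a control siRNA, the uninduced siDNMT1 cells an siRNA against DNMT1, and the NC OB and siDNMT1 OB cells the same siRNAs followed by OB induction for 3 days with 50 µM ascorbic acid, 10 mM β-glycerophosphate and 0.001 µM dexamethasone. Transfection lasted 48 h in all 4 conditions, and whether the uninduced cells were kept for a further 3 days is not given. The comparison addresses how methylation differs when DNMT1, the enzyme that copies methylation onto new DNA, is targeted in uninduced cells and in early osteogenesis. Each condition is 1 library, so no difference has a replicate check and no p-value is given. The methods list more than one DNMT1 siRNA and do not say which was used here, and these methylation data cannot show how far DNMT1 was depleted or whether the cells expressed osteoblast markers.

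Notch signalling runs between touching cells. A ligand of the Jagged or Delta-like family on one cell binds a Notch receptor on its neighbour, γ-secretase then cuts the receptor, and the freed intracellular domain enters the nucleus and joins RBPJ and Mastermind proteins to switch on target genes. The Hey and Hes genes are the best known targets and encode bHLH repressors. In skeletal progenitors the pathway is known to hold cells back from osteoblast maturation, depending on stage. CpG-rich promoters of active or poised genes are usually unmethylated, while the bodies of transcribed genes are usually methylated.

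The measure throughout is the methylation level, the fraction of CpG cytosines read as methylated in a region, from 0 to 1. The libraries list between 155398 and 159705 regions, fewest in the siDNMT1 OB library. The depth behind a level is unknown, since only fractions were deposited, and no interval can be given for a single level. A difference was counted from 0.1, and a lower threshold of 0.05 is named where it is used. The same counts over all genes stand beside the members' counts as background.

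Sequence upstream of the start is shown for a pair of receptors and a pair of ligands, because members of each pair share a role and differ in promoter level. The RefSeq table of GRCm38.p6 matched 8 of the 10 members, all but Hey1 and Heyl. Shown are the bases of its 250 upstream bases that lie outside the GENCODE gene, 5′ to 3′ on the strand of the gene, with each CG dinucleotide, the site that methylation is read at, in capitals. Notch2 (chr3:98013288-98013526, plus strand) has 34 CpGs in the 239 bases shown, and Notch4 (chr17:34564045-34564267, plus strand) has 4 in 223 bases. Jag1 (chr2:137116645-137116770, minus strand) has 14 CpGs in 126 bases, and Dll4 (chr2:119325534-119325783, plus strand) has 14 in 250 bases. The median over the 32851 entries of the table is 6 CpGs in 250 bases.
Notch2: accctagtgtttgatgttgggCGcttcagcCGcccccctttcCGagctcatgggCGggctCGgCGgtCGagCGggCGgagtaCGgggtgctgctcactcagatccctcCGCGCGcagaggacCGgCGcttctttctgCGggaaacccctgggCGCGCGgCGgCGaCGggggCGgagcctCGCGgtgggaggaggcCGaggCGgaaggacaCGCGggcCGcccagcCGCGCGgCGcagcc
Notch4: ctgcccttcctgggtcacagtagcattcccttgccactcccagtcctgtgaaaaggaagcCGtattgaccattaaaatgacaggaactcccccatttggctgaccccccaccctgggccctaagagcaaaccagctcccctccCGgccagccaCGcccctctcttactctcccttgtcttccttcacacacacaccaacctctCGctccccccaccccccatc
Jag1: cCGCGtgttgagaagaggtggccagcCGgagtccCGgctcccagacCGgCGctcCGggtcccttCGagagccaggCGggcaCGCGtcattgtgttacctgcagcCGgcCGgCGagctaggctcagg
Dll4: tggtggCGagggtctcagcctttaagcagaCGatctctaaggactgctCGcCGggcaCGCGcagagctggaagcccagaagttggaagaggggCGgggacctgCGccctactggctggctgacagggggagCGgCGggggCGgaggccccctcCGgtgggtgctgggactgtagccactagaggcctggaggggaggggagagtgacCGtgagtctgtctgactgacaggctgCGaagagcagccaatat

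The 10 promoters were either nearly unmethylated or partly methylated, and none was highly methylated. Notch2, a receptor present in many mesenchymal cells, had the lowest promoter, with 0.0123 in NC, 0.0181 in siDNMT1, 0.0133 in NC OB and 0.0133 in siDNMT1 OB cells. Hey1, a repressor that Notch and BMP signals induce, had 0.0179, 0.0226, 0.0163 and 0.0184 in the same order. The highest level of Notch2 was above the lowest of Hey1, so the libraries of these neighbours overlapped. Jag1, the ligand best known in bone cells, followed with 0.0308, 0.0335, 0.0303 and 0.0365. Notch3, a receptor best known in pericytes and smooth muscle, had 0.0808, 0.0660, 0.0805 and 0.0605. From Hey1 to Jag1, from Jag1 to Notch3 and from Notch3 to Dll1 the levels of the 4 libraries did not overlap.

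Dll1, a ligand that acts in somite patterning, stood between the low and the high promoters. Its levels were 0.268 in NC, 0.276 in siDNMT1, 0.213 in NC OB and 0.210 in siDNMT1 OB cells, so both OB libraries were below both uninduced libraries. The median level of all promoters also shifted with induction, by -0.0171 in NC and -0.0239 in siDNMT1 cells. How many of all promoters keep such an order of libraries was not counted. The other 5 promoters lay between 0.362 and 0.516 and each overlapped the next in order. Notch4, a receptor best known in endothelium, had 0.392, 0.383, 0.374 and 0.362. Dll4, the endothelial ligand, had 0.367, 0.377, 0.397 and 0.390. The OB libraries were lower than the uninduced ones at Notch4 and higher at Dll4. Heyl, a target known in vascular smooth muscle, had 0.422, 0.433, 0.384 and 0.364. Jag2, the second Jagged ligand, had 0.439, 0.424, 0.414 and 0.403. Notch1, the receptor most studied in osteoblasts, had 0.452, 0.410, 0.511 and 0.516, with both OB libraries above both uninduced ones. A mean level under 0.1 was found at 4 of the 10 member promoters, close to the 42.0% of all 20152 promoters. The median of the 10 means was 0.310, against 0.180 over all promoters.

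**Figure D1:**
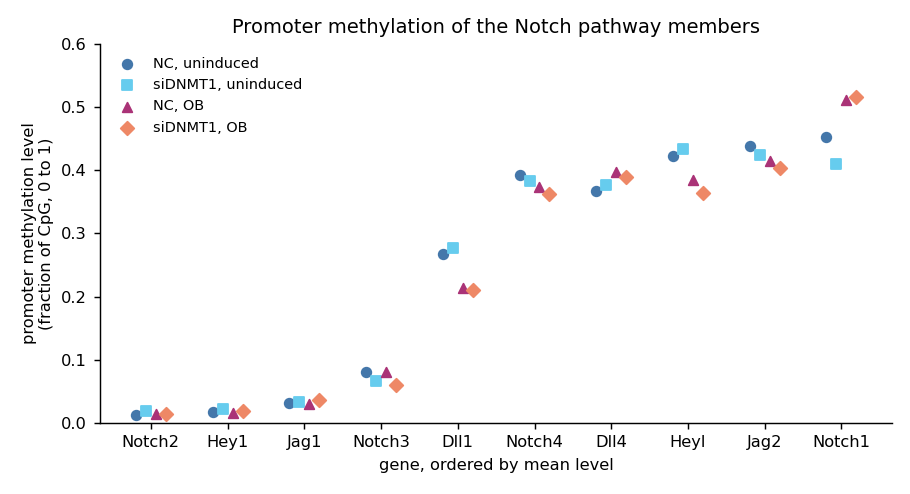
Promoter methylation level (fraction, y axis) of the 10 members in each of the 4 libraries (points, 1 per library), ordered by mean level on the x axis. Notch2, Hey1, Jag1 and Notch3 lie under 0.1 in every library, Dll1 lies between 0.210 and 0.276, and the other 5 lie between 0.362 and 0.516.

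The number of CpGs in the 2 kb before the GENCODE start went with the promoter level, with exceptions among the ligands. Jag1 has 114 CpGs there, Hey1 104, Notch2 63 and Notch3 52, and these are the low promoters. Heyl and Notch4 have 23 each, Notch1 24 and Dll1 33. The promoter entries of Dll4, with 86 CpGs, and Jag2, with 58, were partly methylated all the same. Mean levels of 0.382 for Dll4 and 0.420 for Jag2 were above the upper quartile of promoters with as many CpGs, 0.202 and 0.406. The Dll4 island just after the start (chr2:119325902-119327393) was lower, with 0.112 in NC, 0.108 in siDNMT1, 0.110 in NC OB and 0.0902 in siDNMT1 OB cells. The shore over the Dll4 start (chr2:119323901-119325900) had 0.434, 0.431, 0.442 and 0.443. Both also hold transcript starts of Gm14207. Spearman's rho between CpG number and mean level was -0.57 over the 10 members and -0.34 over 20128 promoters, given as a description, since promoters of 1 library share its depth. The sequences above, picked because promoter levels differ, only illustrate both cases. Notch2 has many CpGs where Notch4 has few, and has the lower level. Dll4 has a CpG-rich upstream sequence as Jag1 has, and the higher promoter level. Among matched members not shown, the 250 bases hold 54 CpGs for Jag2, 21 and 13 for Dll1, 17 for Notch3 and 16 for Notch1. Their mean promoter levels were 0.420, 0.242, 0.0720 and 0.472, which do not follow the CpG number.

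**Figure D2:**
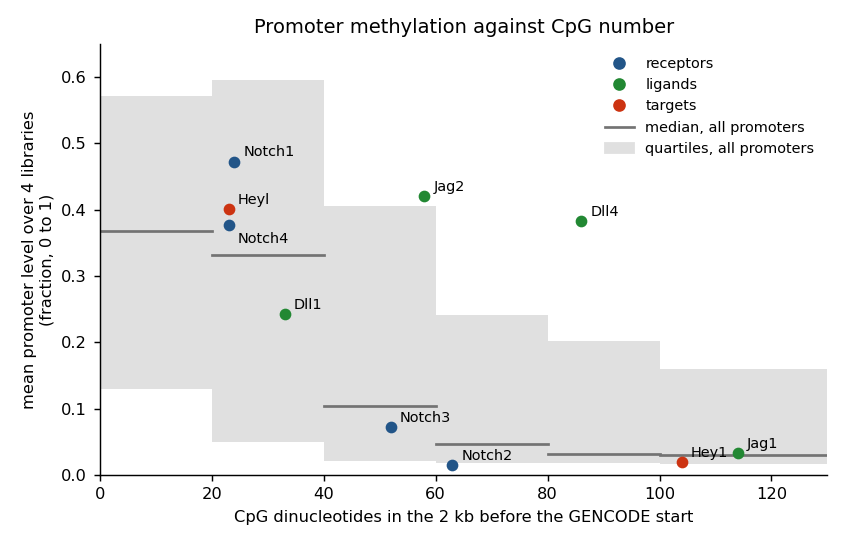
Mean promoter level over the 4 libraries (fraction, y axis) against the number of CpG dinucleotides in the 2 kb before the GENCODE start (x axis, drawn to 130 although the last class runs to 276). Points are the members by role, grey lines are medians and grey areas quartiles of all promoters by CpG class, and Jag2 and Dll4 lie above the grey areas.

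Which start each promoter entry refers to is not given. For 8 members the gene starts of GENCODE and RefSeq lie at most 124 bp apart, and for Hey1 they are 218 bp apart. RefSeq also lists upstream sequences of starts further inside the GENCODE gene. For Dll1 such a sequence is chr17:15375824-15376073, beside one at the gene start, and for Jag2 it is chr12:112929496-112929745. Among the gene starts, Notch1 (ENSMUSG00000026923, minus strand, chr2:26457903-26516663) is the exception, because the GENCODE gene starts 12841 bp before the RefSeq start. The 2 kb before the RefSeq start hold 55 CpGs instead of 24. With 55 CpGs, the mean promoter level of Notch1, 0.472, is above the upper quartile of promoters with 40 to 59 CpGs, 0.406. A CpG island over that start (chr2:26502390-26503993) was low in all libraries, with 0.0230, 0.0277, 0.0247 and 0.0206, and so was the 5′ UTR entry, with 0.0171, 0.0339, 0.0158 and 0.0190. Which of these starts the Notch1 promoter level belongs to cannot be told apart.

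Gene bodies set the receptors apart from each other. Notch3 (ENSMUSG00000038146, minus strand, chr17:32120820-32166852) had the most methylated exons of the set, with 0.748, 0.733, 0.744 and 0.733, in the order NC, siDNMT1, NC OB and siDNMT1 OB that holds below. Notch1 exons were also high, with 0.697, 0.681, 0.701 and 0.704, while its introns ran from 0.343 to 0.357. Notch2 (ENSMUSG00000027878, plus strand, chr3:98013527-98150361) had a nearly unmethylated 5′ UTR, between 0.0105 and 0.0201, and a highly methylated 3′ UTR, with 0.737, 0.740, 0.743 and 0.671. Notch4 (ENSMUSG00000015468, plus strand, chr17:34564268-34588503) was the opposite. Its promoter was partly methylated, while its exons had 0.0920, 0.0875, 0.0833 and 0.0725 and its 3′ UTR lay between 0.0745 and 0.108. The 3′ UTR mean of Notch4 was higher than only 4.92% of all 3′ UTR means. A CpG island inside the last part of Notch4, over exons and introns (chr17:34586860-34587906), was nearly unmethylated, between 0.0113 and 0.0158. GENCODE places starts of short Notch4 transcripts in it.

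The ligands differed in how levels changed along the gene. Jag1 (ENSMUSG00000027276, minus strand, chr2:137081456-137116644) had a 5′ UTR between 0.0213 and 0.0274, exons between 0.118 and 0.154, lowest in siDNMT1 OB cells, and introns between 0.327 and 0.340. Jag2 (ENSMUSG00000002799, minus strand, chr12:112907819-112929776) had a low 5′ UTR, between 0.0364 and 0.0446, beside its partly methylated promoter, and a 3′ UTR between 0.695 and 0.719. Dll1 (ENSMUSG00000014773, minus strand, chr17:15367354-15376872) had exons of 0.591, 0.577, 0.533 and 0.520 and introns between 0.0752 and 0.110, below its promoter and 5′ UTR. Dll4 (ENSMUSG00000027314, plus strand, chr2:119325784-119335962) showed the same contrast of exons and introns, with exons between 0.462 and 0.479 and introns between 0.131 and 0.165. Dll4 has no 5′ UTR entry.

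The target genes encode related repressors and differed in every region class they share. Hey1 (ENSMUSG00000040289, minus strand, chr3:8663359-8667256) was nearly unmethylated in each of its entries. Its 5′ UTR lay between 0.0152 and 0.0185, its exons between 0.0134 and 0.0157 and its introns between 0.0549 and 0.0744. Only 7.80% of all exon entries had a lower mean. Heyl (ENSMUSG00000032744, plus strand, chr4:123233556-123249875) was methylated in each of its entries. Its 5′ UTR had 0.451, 0.459, 0.410 and 0.410, higher in mean than 88.7% of all 5′ UTRs. Its exons lay between 0.611 and 0.626 and its introns between 0.501 and 0.546. Neither gene has a 3′ UTR entry.

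**Figure D3:**
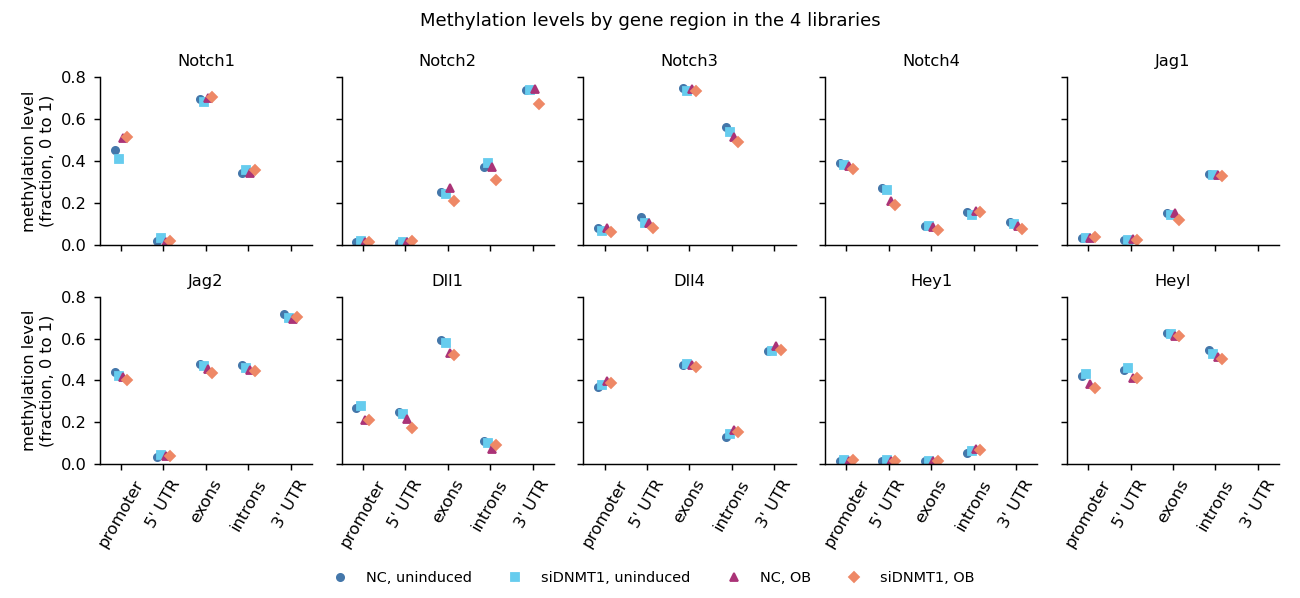
Methylation level (fraction, y axis) of each gene region entry (x axis) of the 10 members, with 1 point per library and a gap where a gene has no entry. Hey1 lies under 0.08 in every region, Heyl lies between 0.364 and 0.626, and the siDNMT1 OB points of the Notch2 exons, introns and 3′ UTR lie below the other libraries.

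Before induction, no gene region entry of the members differed by 0.1 between siDNMT1 and NC cells, and none differed by 0.05. Over all genes, 1.54% of entries differed by at least 0.1 and 6.51% by at least 0.05. Of the 43 entries, 25 were lower with siDNMT1 and 18 higher, against 55.9% lower over all genes. With each library centred on the median of its region class, 23 were lower, against 45.3% of all entries. The median difference was -0.00458, and -0.00158 over all entries. Notch1 had the largest difference, at its promoter, from 0.452 to 0.410. That difference of -0.0422 lay just inside the 5th percentile of all promoters, -0.0427. At the receptors Notch3 and Notch4 every entry was lower with siDNMT1, with differences from -0.0268 to -0.00458. Hey1 was higher in all 4 of its entries, by 0.00131 to 0.00961. Each Hey1 difference was smaller than the median absolute difference of its class over all genes. These medians were 0.00805 for promoters, 0.00603 for 5′ UTRs, 0.0103 for exons and 0.0113 for introns. The share of all genes with every entry in the same direction was not counted.

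After OB induction, again no entry differed by 0.1, and 2.16% of all entries did. At the 0.05 threshold 3 entries were lower and none higher, against 10.1% of all entries in either direction. All 3 belong to Notch2. Its exons went from 0.269 in NC OB to 0.208 in siDNMT1 OB cells, its introns from 0.369 to 0.310 and its 3′ UTR from 0.743 to 0.671, while its promoter had 0.0133 in both. In uninduced cells the same entries differed by -0.00646, 0.0199 and 0.00279. The siDNMT1 OB library was thus the lowest of the 4 at each of them, and the share of all entries with that library lowest was not counted. The differences of -0.0608, -0.0596 and -0.0723 each lay just inside the 5th percentile of their class over all genes, -0.0618 for exons, -0.0607 for introns and -0.0784 for 3′ UTRs. Exons of a gene usually include its 3′ UTR, so these may not be independent readings.

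The next largest differences after induction were at ligands. The Dll1 5′ UTR went from 0.217 to 0.175 and the Jag1 exons differed by -0.0328. Of the 43 entries, 32 were lower with siDNMT1 and 11 higher, against 66.8% lower over all genes. The median difference was -0.00752, against -0.00619 over all entries. After the same centring, 16 were lower and 27 higher, and 43.5% of all entries were lower. Hey1 differed most in its introns, by -0.00613, and its promoter by 0.00214.

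**Figure D4:**
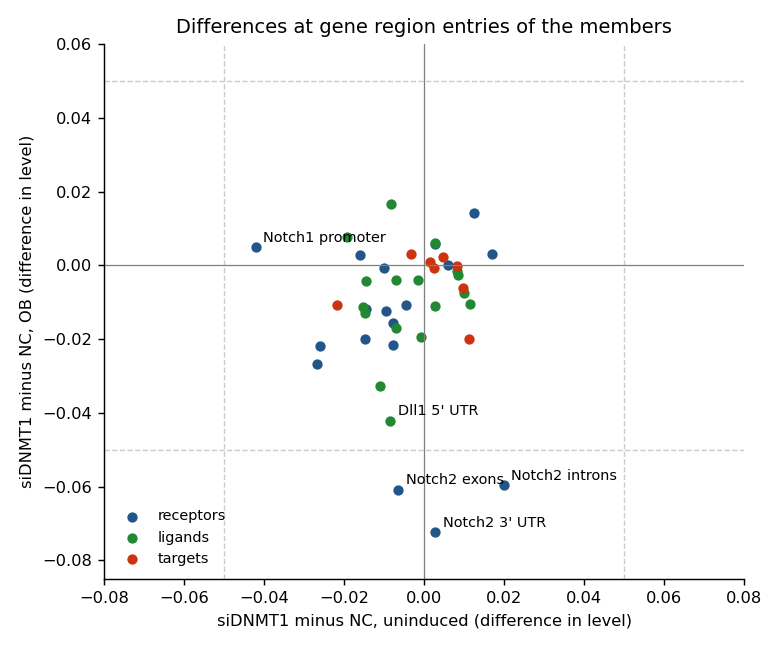
Difference in methylation level, siDNMT1 minus NC, of the 43 gene region entries of the members in uninduced cells (x axis) and OB cells (y axis), coloured by role, with dashed lines at 0.05. The Notch2 exons, introns and 3′ UTR lie below the lower dashed line, at -0.0608, -0.0596 and -0.0723, and no point lies beyond 0.05 on the x axis.

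OB induction was compared within each siRNA, and these comparisons share their libraries with those above. In NC cells no member entry differed by 0.1 between OB and uninduced cells, and 2.15% of all entries did. At the 0.05 threshold 4 entries were lower and 1 higher, against 10.2% of all entries. The lower ones were the Dll1 promoter (0.268 to 0.213) and exons (0.591 to 0.533), the Notch4 5′ UTR (0.270 to 0.210) and the Notch3 introns (0.564 to 0.513). The higher one was the Notch1 promoter (0.452 to 0.511). Of the 43 entries 29 were lower, against 61.7% of all entries, and 18 were lower after centring, against 36.8%. The members' median was -0.00307, beside -0.00339 over all entries. It was -0.0145 without entries whose mean is under 0.1, -0.0105 as a median of gene means and 0.00571 after centring.

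In siDNMT1 cells 1 entry differed by 0.1, and 3.40% of all entries did. It was the Notch1 promoter, which went from 0.410 before to 0.516 after induction, a difference of 0.106. At the 0.05 threshold 7 were lower and 1 higher, against 14.7% of all entries. The lower ones were the Notch2 introns (0.390 to 0.310) and 3′ UTR (0.740 to 0.671), the Notch4 5′ UTR (0.262 to 0.188), the Heyl promoter (0.433 to 0.364), and 3 entries of Dll1. These were its promoter (0.276 to 0.210), 5′ UTR (0.241 to 0.175) and exons (0.577 to 0.520). Dll1 promoter and exons and the Notch4 5′ UTR were thus at least 0.05 lower after induction under both siRNAs, and the Notch1 promoter at least 0.05 higher. Most changes over all genes were also downward, with 5251 entries lower and 2542 higher in NC cells. In siDNMT1 cells these were 8814 and 2391. The share of all entries that changed alike under both siRNAs was not counted. Of the 43 entries 32 were lower, against 72.0% of all entries, and 17 were lower after centring, against 37.3%. The members' median was -0.0100, beside -0.00800 over all entries.

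CpG islands of the members covered the whole range of levels. Of the 18 islands 7 had a mean under 0.1 and 6 a mean of at least 0.5, where 61.7% and 14.8% of all 14095 islands did. The island over the Hey1 start (chr3:8666663-8667747) stayed between 0.0147 and 0.0186, that over the Jag1 start (chr2:137115364-137117627) between 0.0279 and 0.0309 and that over the Notch2 start (chr3:98013309-98014020) between 0.0111 and 0.0157. The highest mean was at an island over exon and intron sequence of Notch1 (chr2:26465449-26465654), with 0.875, 0.864, 0.870 and 0.850, while other islands within genes, such as the Notch4 one above, were nearly unmethylated. The island over the Jag2 start (chr12:112928401-112929977) had 0.226, 0.220, 0.198 and 0.186, and that at the 5′ end of Dll1 (chr17:15374641-15376785) had 0.298, 0.295, 0.252 and 0.249. At both, the OB libraries were below the uninduced libraries. The median level of all islands shifted the same way, by -0.00383 in NC and -0.00533 in siDNMT1 cells, and the share of islands with that order was not counted. The Dll1 island also holds transcript starts of A930024N18Rik on the other strand, and the levels do not tell the genes apart.

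Of the 35 islands and shores, 1 was at least 0.1 higher with siDNMT1 before induction, against 1.25% of all islands and shores in either direction. None differed by 0.1 after induction, against 1.72%. None did between the NC libraries, against 2.09%, and 1 did between the siDNMT1 libraries, against 2.99%. Both differences were at the shore over the Heyl start (chr4:123231608-123233607), which covers 1948 bp before the start, the start itself and the first exon's beginning. Its levels were 0.333 in NC, 0.443 in siDNMT1, 0.398 in NC OB and 0.313 in siDNMT1 OB cells. The difference, siDNMT1 minus NC, was 0.110 before and -0.0855 after induction, and both values lay outside the central 90% of shores, which ran from -0.0468 to 0.0399 before and from -0.0659 to 0.0344 after induction. Of all 16439 shores, 1.35% differed by at least 0.05 in opposite directions. Beside that shore, the Heyl island in exon and intron sequence (chr4:123233609-123234080) ran the other way, with 0.447, 0.419, 0.353 and 0.393. The island's siDNMT1 minus NC differences were -0.0283 before and 0.0398 after induction. Both lay outside the central 90% of islands, from -0.0243 to 0.0208 before and from -0.0330 to 0.0164 after induction. The island's difference of -0.0943 between the NC libraries lay below the 5th percentile of all islands, -0.0547.

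At the other members the largest siDNMT1 minus NC difference of an island or shore within the gene was smaller. For 4 members it was at a shore after induction, and the siDNMT1 OB library was the lowest of the 4 at each. The median level of all shores was also lower in that library, by a shift of -0.0118 from NC OB and -0.0297 from siDNMT1 cells. The share of all shores with siDNMT1 OB lowest was not counted. The Jag2 shore over exons and introns (chr12:112913784-112915784) had 0.529, 0.553, 0.531 and 0.481, and that at the 3′ end of Dll4, mostly outside the gene (chr2:119335792-119337791), had 0.222, 0.201, 0.187 and 0.138. The Notch3 shore near the 5′ end (chr17:32163748-32165747) differed by -0.0406, and that at the 3′ end of Notch4 (chr17:34587907-34589907), which also holds transcript starts of Gpsm3, by -0.0353. All 4 differences, including -0.0497 for Jag2 and -0.0490 for Dll4, lay within the central 90% of shores. Islands spread less than shores, and the ranking by size did not allow for this. A Notch3 intron island (chr17:32165749-32166261) differed by 0.0298 before and 0.0106 after induction. The first value lay above the central 90% of islands, which ran from -0.0243 to 0.0208 before induction. For Dll1 the largest was 0.0395 before induction, at the shore over its start. For Notch1 it was -0.0198 after induction, at the exon and intron island named above. Notch2, Jag1 and Hey1 did not exceed 0.00463, the value of the Notch2 start island before induction. The 35 islands and shores had median differences of -0.00363 (uninduced) and -0.00415 (OB), against -0.000313 and -0.00317 over all islands and shores.

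Within 2 kb upstream lie 5 more shores outside the genes and so outside the counts above. One belongs to Hey1 (chr3:8667748-8669748). Its levels were 0.0757, 0.148, 0.0906 and 0.0395, highest in siDNMT1 and lowest in siDNMT1 OB cells. The difference was 0.0724 before and -0.0511 after induction. The first lay above the central 90% of shores and the second within it. Between the siDNMT1 libraries the difference was -0.109. The other Hey1 shore, inside the gene, stayed between 0.0196 and 0.0256. The upstream shore of Jag2 (chr12:112929978-112931978) differed in the opposite directions to that of Hey1, by -0.0195 before and 0.0405 after induction, the second above the central 90% of shores. The upstream shores of Notch2 (0.0316 and -0.00804), Dll1 (-0.00502 and -0.0482) and Dll4 (0.0131 and -0.0190) lay within it.

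Shore and promoter entries over nearly the same bases did not give the same levels. The Heyl shore covers 97.4% of the 2 kb before the start, yet the Heyl promoter differed by 0.0111 and -0.0200 where the shore differed by 0.110 and -0.0855. The Dll1 shore (chr17:15376786-15378786) covers 95.7% of the 2 kb, and had 0.589, 0.629, 0.595 and 0.606 where the Dll1 promoter had between 0.210 and 0.276. For annotating differentially methylated regions, the methods take the 2 kb before a transcription start as promoter. Whether the deposited promoter entries use that window, and from which start, is not stated, and its part in these differences was not tested. A shore can also hold another island: a Jag1 shore (chr2:137113363-137115362) and the island inside it have identical levels in all 4 libraries.

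**Figure D5:**
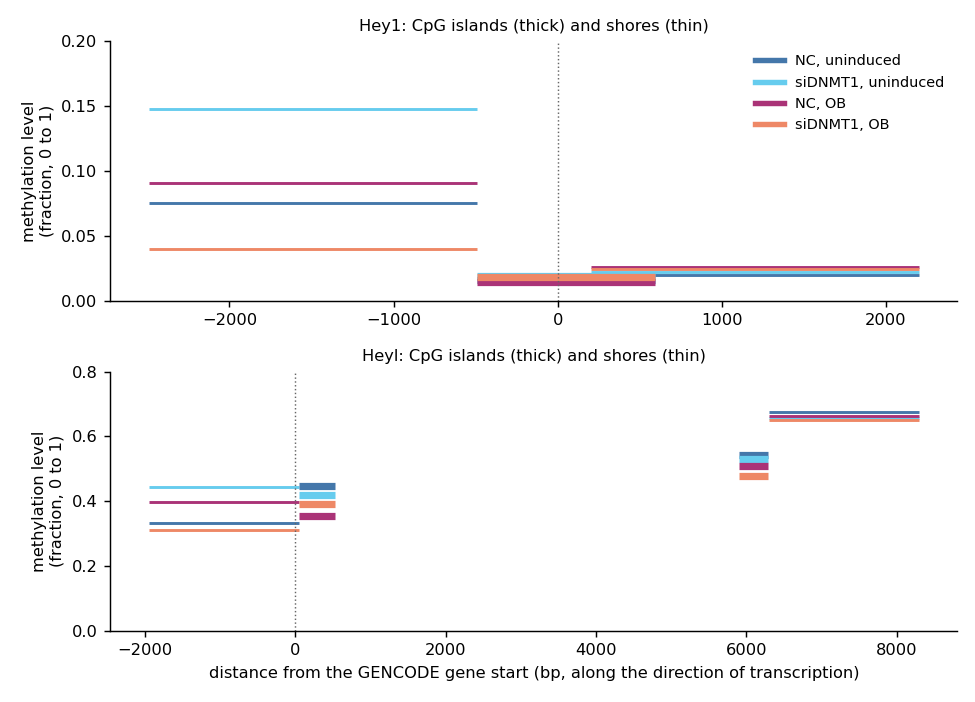
Methylation level (fraction, y axis, with a different scale for each gene) of the CpG islands (thick bars) and shores (thin bars) of Hey1 and Heyl against distance from the GENCODE start (x axis, bp), coloured by library. Upstream of both starts the siDNMT1 bar is the highest and the siDNMT1 OB bar the lowest, at 0.148 and 0.0395 for Hey1 and at 0.443 and 0.313 for Heyl.

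The other pathway genes, 44 in all, covered further ligands and targets, the nuclear complex, proteases, glycosyltransferases and regulators of endocytosis and turnover. They have 175 entries with a level in all libraries. None differed by 0.1 with siDNMT1 before induction, and after it 3 were lower and 1 higher, beside the background of 1.54% and 2.16% given above. OB induction gave 2 lower entries in NC and 5 lower and 1 higher in siDNMT1 cells, beside a background of 2.15% and 3.40%. Of their 40 promoters 21 had a mean under 0.1, which is 52.5%, against 42.0% of all promoters. The proteases, which cleave the receptors, had a median promoter mean of 0.0385, and 6 of 9 were under 0.1. The nuclear complex had 0.0405, with Maml1, a Mastermind coactivator, lowest at 0.0150 and Maml3 highest at 0.579. The other targets had 0.179, from Hes1 at 0.0602 to Hes7, the oscillating gene of the segmentation clock, at 0.619.

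The 4 entries that differed by 0.1 with siDNMT1 belong to 4 genes. The promoter of Aph1c, a γ-secretase subunit, went from 0.338 in NC OB to 0.171 in siDNMT1 OB cells, and from 0.267 to 0.206 in uninduced cells. The 5′ UTR of Dtx3, a Deltex family member, went from 0.525 to 0.389 after induction and from 0.739 to 0.667 before it, and was lower in OB than in uninduced cells under both siRNAs. The Maml3 promoter went from 0.648 to 0.526 after induction and from 0.575 to 0.566 before it. The introns of Snw1, a coregulator and splicing factor that binds the Notch complex, went from 0.414 to 0.524 after induction and from 0.361 to 0.269 before it.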

How the data were processed

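Per the labels and the methods, reads were trimmed with Trimmomatic (version 0.36) and aligned to mm10 with Bismark (version 0.16.3). The deposited values are fractions of methylated CpG per region in 1 library per condition. The weighting of cytosines, coverage minimum and annotation are not given in the sources used here. The assay is named RRBS, while the stated protocol fragments DNA by sonication.

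Genes were matched to GENCODE vM21, and sequences came from RefSeq on GRCm38.p6. All 14354 islands begin and end with CG on that assembly when starts are counted from 0, and printed positions count from 1. Differences were taken over entries with a level in all 4 libraries. Without replicates or read counts no test was run. Background shares are over all entries of the same classes. The counting was tested on simulated data. Members and lists were chosen with earlier results of these data known. All members are named, and other pathway genes where an entry differed by at least 0.1 with siDNMT1, besides the lowest or highest promoter of a role group. Named islands and shores are those with the largest difference of each member (within the gene, siDNMT1 minus NC), and others, mostly over starts, that were chosen after their values were seen. Alternatives covered the threshold (0.05, 0.2), class median centring, a mean level of at least 0.1, levels in both libraries, means per gene and 2 kb added upstream. Python 3.11.15, pandas 2.3.3 and numpy 2.4.6 were used.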

Additional observations from a re-analysis of the deposited data

Results flagged for a closer look

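The shore over the Heyl start had a siDNMT1 minus NC difference of 0.110 before and -0.0855 after OB induction. The shore upstream of Hey1 showed the same pattern, with 0.0724 and -0.0511, and the introns of Snw1 the opposite one, with -0.0918 and 0.110. They were singled out because the difference had opposite signs in uninduced and OB cells and a size of at least 0.05 in both. Of all 16439 shores, 1.35% met this rule. The share of all gene region entries that met it, the background for Snw1, was not counted. The Heyl island beside the Heyl shore also changed sign, in the other direction (-0.0283 and 0.0398), and did not reach that size. With 1 library per condition the change of sign was not tested.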

How the results depend on the processing

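With a threshold of 0.05, the members' counts became 3 (siDNMT1 minus NC in OB cells), 5 (OB minus uninduced in NC cells) and 8 (OB minus uninduced in siDNMT1 cells), and with a threshold of 0.2 the last became 0. In siDNMT1 cells, the median OB minus uninduced difference became 0.00568 over gene region entries and 0.00316 over islands and shores after centring on class medians, and -0.02265 over islands and shores whose mean reached 0.1. The siDNMT1 minus NC median over gene region entries ran from -0.00788 to -0.000687 in uninduced and from -0.0114 to 0.00252 in OB cells. Of 28 alternative medians, 5 had the other sign, all under centring, and 25 moved by less than the median absolute difference between the NC libraries (0.0119 for gene region entries, 0.0104 for islands and shores). Every main median was itself smaller in size than these values, so a median could change sign and still count as not moved. Of 20 alternative counts, 16 stayed within 1.5 times. Where the main count was 0, a threshold of 0.2 or a subset of entries could only return 0. Asking for levels in both libraries only returned every main count and median unchanged. Such agreement was fixed in advance and does not show that the results are stable. The labels give no replicate numbers to pair by, and an additive fit over siRNA and induction, with the other factor as the pair, was not run. Depth is unknown, so small differences cannot be told from sampling.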
